A study of Mus musculus with 6 samples.

Results

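A group of 7 glycan-building enzymes was followed in cultured mouse follicular B cells: B3gnt7, B3gnt2, B3gnt5, B4galt1, St6gal1, St3gal1 and Cmah. They are 7 of the 12431 genes in the count table, and all 7 were among the 10514 genes tested. B3gnt7 was chosen by its read counts, which differed between wild-type (WT) and GPR174-deficient (KO) cells in these same libraries, and the other 6 were listed beside it as enzymes that build the same chains or cap them with sialic acid, to ask whether B3gnt7 changed alone. Values of the 7 between WT and KO are therefore descriptions, and the B3gnt7 difference is given without a test.

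The cells were sorted from spleens of adult male mice as CD23+ and CD21/35- cells and cultured for 1 h in complete RPMI medium with no stimulus added. WT mice were Gpr174+/Y. KO mice were Gpr174-/Y, carrying a tdTomato reporter in place of the receptor's coding exon in every cell of the body, so the deficiency was not limited to B cells. Each group held 3 libraries, made with a kit that reads the 3′ ends of polyadenylated transcripts. The paper's methods do not say whether each 1 h library came from a different mouse. The p-values below measure the spread between these 6 libraries. Gpr174 encodes a lysophosphatidylserine receptor on the X chromosome that signals through the G protein Gαs.

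Lactosamine is a disaccharide of galactose and N-acetylglucosamine (GlcNAc), and cells string it into long chains on N-glycans, O-glycans and glycolipids. In the Golgi, a B3gnt enzyme adds GlcNAc, a B4galt enzyme adds galactose, and the alternation lengthens the chain until a sialic acid closes it. On B cells these chains are read by galectins and by sialic acid-binding receptors such as CD22, whose ligand is made by St6gal1.

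Upstream sequences were read for the members because the genes whose pattern over the libraries was closest to that of B3gnt7 included Crem, Nr4a1, Nr4a2 and Fosl2, each encoding a transcription factor of a family with a textbook recognition motif. RefSeq promoter windows (GRCm38.p6, 250 bases before to 50 bases after the start) were at hand for 6 of the 7 members, and St3gal1 was not matched. They were searched on both strands for the cAMP response element (CRE) TGACGTCA, its shorter core TGACG, the NR4A monomer element AAAGGTCA and the AP-1 site TGANTCA. The core is contained in the full CRE. Among all 32851 windows of 300 bases, 1.79% held the full CRE, 20.8% the core, 1.51% the NR4A element and 7.81% the AP-1 site. The 250 bases before the RefSeq start of B3gnt7, at chr1:86302971-86303220 on the plus strand, held none of the 4 motifs, so no base is in capitals:
B3gnt7: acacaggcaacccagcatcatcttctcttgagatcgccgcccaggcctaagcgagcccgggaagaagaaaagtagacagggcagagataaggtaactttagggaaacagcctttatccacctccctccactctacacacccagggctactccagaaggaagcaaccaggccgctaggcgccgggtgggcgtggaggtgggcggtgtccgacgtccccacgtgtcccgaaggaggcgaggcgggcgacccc
GENCODE places this stretch before the 5′ end of the coding B3gnt7 transcript and inside the single exon of another B3gnt7 transcript that has no annotated coding sequence. The core, in capitals, was found at -63 to -59 from the RefSeq start of B3gnt2. As its reverse complement CGTCA, it was found at -69 to -65 from the RefSeq start of B3gnt5. GENCODE extends B3gnt2 to 22860961, so the B3gnt2 stretch lies inside that annotated gene. Both are shown here with the flanking bases at chr11:22859784-22859808 (minus strand) and chr16:19760155-19760179 (plus strand):
B3gnt2: ttcccggcggTGACGcgcgcggtgg
B3gnt5: gggcggggcaCGTCAccttcacaga
The B4galt1 and Cmah windows held none of the motifs, and 1 of the St6gal1 windows held an AP-1 site. These are matches of letters, and a missing match says nothing about a factor.

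Libraries held 8452460 to 10944833 counts. In a principal component analysis the first component (40.0% of the variance) set WT library 2 apart, at 32.5 against -8.18 to -4.33 for the other 5, and B3gnt7 and the other values that lean most on it are also given without it. Gpr174 itself read 121 to 136 CPM (reads scaled to the size of the library, with trimmed mean of M values, TMM, factors) in WT and 99.8 to 100.2 CPM in KO. These 3′ reads need not come from the replaced coding exon, so they do not check the genotype. Follicular B cell markers (7 of 8 in the table, without Ighd) summed to 4964 to 5186 CPM in WT and 5586 to 5837 CPM in KO, and 1 of them, Cd79b of the B cell receptor complex, passed the test as lower in WT (log2 fold change -0.39). No gene of the other marker lists passed. Cr2, which encodes CD21/35, stood at 981 to 1166 CPM over the 6 libraries although the sort gate was CD21/35-. Summed marker levels in WT and KO were 118 to 127 and 103 to 119 CPM for plasma cells (5 of 5 in the table), 44.0 to 61.3 and 33.9 to 51.9 CPM for T cells (6 of 7, without Trac), and 47.0 to 67.7 and 41.3 to 48.7 CPM for myeloid cells (7 of 7). They were 1738 to 1862 and 1620 to 1912 CPM for marginal zone B cells (6 of 6), 2679 to 4714 and 3010 to 7569 CPM for erythroid cells (3 of 6), and 7.27 to 14.1 and 5.85 to 6.65 CPM for NK cells (5 of 6, without Ncr1). Cr2 is on both the follicular and the marginal zone list, so its 981 to 1166 CPM enter both sums. The groups did not overlap in the NK cell sum, higher in WT, or in the follicular B cell sum, higher in KO. The part of these cell types in the results below was not tested, and in such bulk samples fewer cells of a type and less RNA per cell cannot be told apart.

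The first enzymes to describe are those that add GlcNAc to lengthen the chain. B3gnt7, an enzyme known for extending the sulfated lactosamine chains of keratan sulfate, lies on chromosome 1 (mm10, 86302832 to 86307305, plus strand). Its last exon, where 3′ reads are expected to gather, spans 86305045 to 86307305 (2261 bases) and overlaps no other annotated gene, while the antisense gene Gm28626 covers part of its 5′ end. B3gnt7 stood at 38.7, 45.6 and 55.5 CPM in the 3 WT libraries and at 11.8, 12.6 and 17.1 CPM in the 3 KO libraries. The lowest WT value was above the highest KO value. Those levels rest on 382 to 489 reads per WT library and 116 to 175 reads per KO library. B3gnt7 averaged 46.6 ± 8.46 CPM over the WT and 13.8 ± 2.81 CPM over the KO libraries (SD, n = 3), so the KO mean was 29.7% of the WT mean. The fitted log2 fold change, WT over KO, was 1.75 (SE 0.18, 95% interval 1.39 to 2.11), a 3.36-fold difference (2.61 to 4.31). It ran from 1.60 to 1.93 when 1 library was left out, and was 1.76 without WT library 2.

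B3gnt2, the main enzyme for long lactosamine chains on N-glycans, was lower in WT than in KO cells. It stood at 119, 136 and 129.6 CPM in WT and at 161, 164 and 157 CPM in KO. All 3 WT values were below all 3 KO values. B3gnt2 averaged 128 ± 8.42 CPM over the WT and 161 ± 3.62 CPM over the KO libraries (SD, n = 3). The log2 fold change was -0.32 (SE 0.09, 95% interval -0.50 to -0.15), with an adjusted p of 0.0432 by edgeR's quasi-likelihood test with Benjamini-Hochberg adjustment. With 1 library left out the adjusted p ran from 0.0253 to 0.194 and stayed under 0.05 only without WT library 2. By DESeq2 the adjusted p was 0.0128 and by limma-voom 0.0502. B3gnt2 lies on chromosome 11 (22759738 to 22860961, minus strand). The exon at the far 3′ end of its 4 annotated transcripts (22759738 to 22760031) overlaps the annotated pseudogene Gm12057 (22758599 to 22760025) on the same strand. Which transcript end the reads came from was not examined. The annotated gene Gm28048 (22834744 to 22982090), also on that strand, covers B3gnt2 from 22834744 to its 5′ end, with any transcript end in that stretch. Reads that fall in B3gnt2 and in either of these genes could be split or lost in counting.

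B3gnt5 makes the GlcNAc-bearing glycolipid from which lacto-series glycolipids are built. It read 312, 375 and 313 CPM in WT and 294, 281 and 261 CPM in KO. The groups did not overlap, but WT library 2 stood well above the rest. The log2 fold change was 0.26 (SE 0.08, 95% interval 0.09 to 0.42) with an edgeR adjusted p of 0.108, and 0.16 without WT library 2. B3gnt5 therefore did not pass the test, in all libraries or with any 1 left out.

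B4galt1 adds the galactose that alternates with GlcNAc. Its levels were 188, 174 and 169 CPM in WT and 167, 146 and 164 CPM in KO. The lowest WT value stood just above the highest KO value. The log2 fold change was 0.15 (SE 0.08, 95% interval -0.02 to 0.32, edgeR adjusted p = 0.5003), so a WT level more than 1 log2 unit above KO, as seen for B3gnt7, lies outside the interval.

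The 3 enzymes of sialic acid overlapped between the groups. St6gal1, which places sialic acid on the galactose of N-glycans, read 348, 378 and 327 CPM in WT and 344, 317 and 318 CPM in KO. The lowest WT value lay below the highest KO value. The St6gal1 log2 fold change was 0.10 (95% interval -0.05 to 0.25), and 0.05 without WT library 2. St3gal1, which caps the galactose of core O-glycans, stood at 222, 226 and 220.1 CPM in WT and at 215, 195 and 229 CPM in KO. Library KO 3 was the highest of the 6. The St3gal1 log2 fold change was 0.06 (95% interval -0.10 to 0.22). Cmah, the hydroxylase that turns N-acetylneuraminic acid into the N-glycolyl form preferred by mouse CD22, read 207, 218 and 183 CPM in WT and 202, 192 and 192 CPM in KO. The lowest value of all was a WT library. The Cmah log2 fold change was 0.05 (95% interval -0.11 to 0.22), and it turned to -0.0045 without WT library 2. The edgeR adjusted p was 0.637 for St6gal1, 0.813 for St3gal1 and 0.859 for Cmah.

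**Figure D1:**
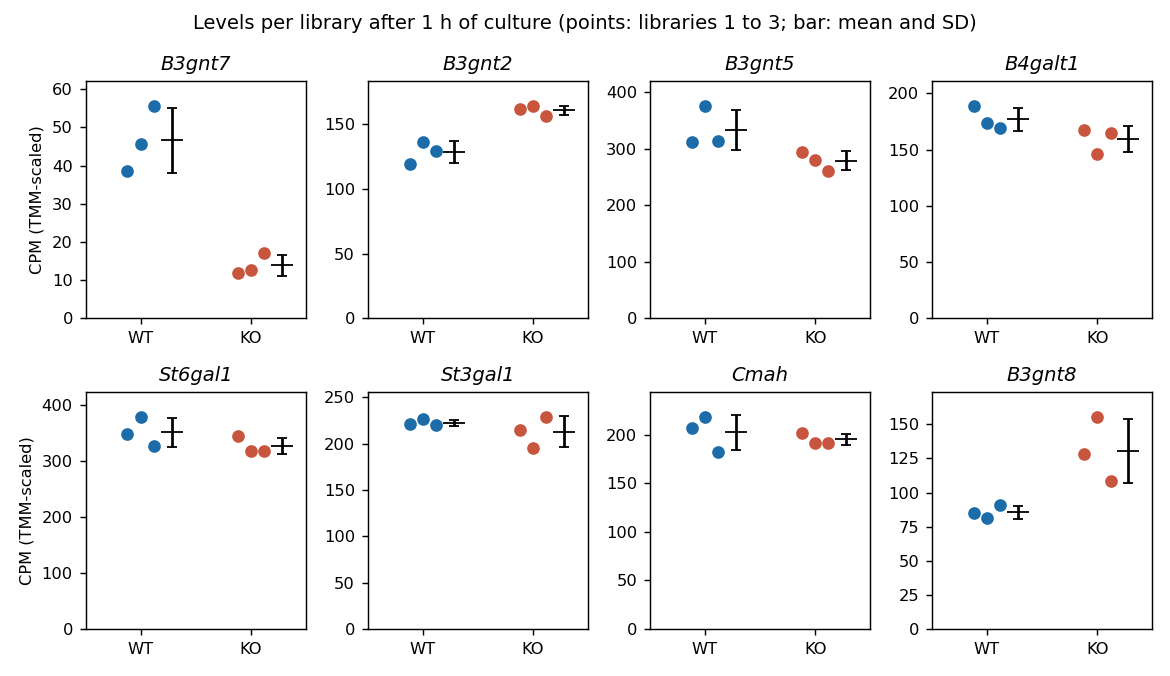
CPM of the 7 enzymes and of B3gnt8 in each of the 3 WT (blue) and 3 KO (red) libraries, with the mean and SD as a black bar, each panel on its own axis from 0. B3gnt7 is higher in every WT library, B3gnt2 and B3gnt8 are lower in every WT library, and St6gal1, St3gal1 and Cmah overlap.

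With B3gnt7 left out of the count because it was chosen on this contrast, 1 of the other 6 enzymes, B3gnt2, passed the adjusted threshold of 0.05, where 1.82% of all tested genes passed. The WT and KO ranges did not overlap for 3 of these 6 (B3gnt2, B3gnt5 and B4galt1), against 16.7% of all tested genes. Because the enzymes were listed with this contrast known, nothing is read from either count. The 6 enzymes other than B3gnt7 had log2 fold changes from -0.32 to 0.26, of which 5 were above 0 and 1 below, and their 95% intervals stayed between -0.50 and 0.42. The B3gnt7 change was 5.40 times the largest of these in absolute size. The median log2 fold change was 0.10 over the 7 enzymes and -0.0026 over all tested genes.

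Another enzyme of the B3gnt family, not on the list of 7, passed the test in the direction opposite to B3gnt7. B3gnt8, which extends lactosamine on branched N-glycans and can act in a complex with B3gnt2, stood at 84.8, 81.3 and 90.5 CPM in WT and at 128, 155 and 108 CPM in KO. Every WT value was below every KO value, and the KO values were the more scattered. B3gnt8 averaged 85.5 ± 4.62 CPM over the WT and 131 ± 23.5 CPM over the KO libraries (SD, n = 3). The log2 fold change was -0.61 (SE 0.11, 95% interval -0.83 to -0.38), and the edgeR adjusted p was 0.00153. The adjusted p stayed under 0.05 with each of the 6 libraries left out, from 0.000644 to 0.0313. The exon at the far 3′ end of the 4 annotated B3gnt8 transcripts (chromosome 7, 25634846 to 25635100, plus strand) overlaps Bckdha on the opposite strand. Which transcript end the reads came from was not examined, and the use of strand in counting was not stated. Bckdha, a subunit of the branched-chain keto acid dehydrogenase, stood at 27.2 ± 3.98 CPM over the WT and 29.6 ± 2.49 CPM over the KO libraries (SD, n = 3), and its log2 fold change was -0.12 (SE 0.16).

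**Figure D2:**
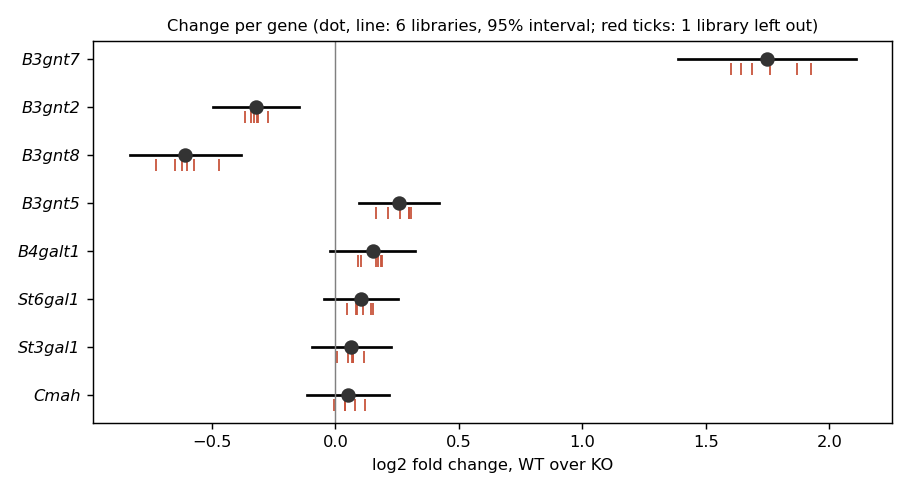
Log2 fold change (WT over KO) of the 7 enzymes and B3gnt8, with dots and black lines for the fit on 6 libraries and its 95% interval, and red ticks for fits with 1 library left out. B3gnt7 lies at 1.75, B3gnt2 and B3gnt8 lie below 0, and the intervals of B4galt1, St6gal1, St3gal1 and Cmah cross 0.

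The changes in B3gnt7, B3gnt2 and B3gnt8 were of opposite sign, so their reads were also summed per library, as a count of 3′ ends with no weight for the enzymes' activity. The sum was 243, 263 and 276 CPM in WT and 301, 332 and 282 CPM in KO. Every WT sum lay below every KO sum, with means of 261 ± 16.5 CPM and 305 ± 24.9 CPM (SD, n = 3), so WT held 85.4% of the KO level. Within each library, B3gnt7 reads equalled 32.4% to 42.8% of B3gnt2 reads in WT and 7.33% to 10.9% in KO. They equalled 45.6% to 61.4% of B3gnt8 reads in WT and 8.15% to 15.7% in KO. B3gnt5, at a mean of 333 CPM in WT and 279 CPM in KO, was not in the sum. The direction of such a sum depends on which enzymes are included. The sum and the ratios were formed after the values were seen and carry no test.

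The rest of the pathway was read from 9 lists of 120 genes, of which 78 were in the table and 66 were tested, 59 of them besides the 7 enzymes above. Of the 59, 0 passed as higher in WT (1.3% of all tested genes did) and 1, B3gnt8, passed as lower (0.514% of all tested genes did). The other 58 did not pass by edgeR, and DESeq2 and limma-voom called none of those they tested. At an unadjusted p under 0.05 by edgeR, 3 of the 59 were higher and 7 lower, where 6.5% of all tested genes were higher and 5.37% lower. The median log2 fold change over the 59 was -0.08, with 24 above 0 and 35 below. The groups did not overlap for 16 of the 59 genes (27.1%), against the 16.7% of all tested genes given above.

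Of 9 tested genes on the list for galactose addition, 0 passed by edgeR and 0 had an unadjusted p under 0.05. C1galt1c1, the chaperone of the enzyme that starts core O-glycans, had the largest difference of that list with -0.52 (log2, SE 0.32), and its levels overlapped at 4.53 to 9.31 CPM in WT and 5.89 to 13.6 CPM in KO. The C1galt1c1 value ran from -0.81 (without KO library 2) to -0.26 (without WT library 2) with 1 library left out. Of 6 tested branching enzymes 0 passed, with 1 higher and 2 lower at an unadjusted p under 0.05. Mgat5, which opens the N-glycan branch favoured for long lactosamine chains, had a log2 fold change of -0.52 (SE 0.41) at 2.86 to 3.75 CPM in WT and 3.90 to 6.0 CPM in KO. These low levels leave its 95% interval at -1.36 to 0.33, too wide to tell a fall from no change.

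Of 12 tested sialyltransferases 0 passed, and 1, St3gal5, had an unadjusted p under 0.05. St3gal5, the GM3 ganglioside synthase, had a log2 fold change of 0.57 (SE 0.27, edgeR adjusted p = 0.421), with 28.3, 12.8 and 19.9 CPM in WT against 19.0, 11.0 and 11.1 CPM in KO. Its groups overlapped, and library 1 was the highest of each. The St3gal5 value was 0.25 without WT library 1 and 0.88 without KO library 1. Of the 11 tested genes of sialic acid supply and removal 0 passed, also without the adjustment. Gne, which begins sialic acid synthesis, had a log2 fold change of -0.33 (SE 0.30) that came down to -0.000645 without WT library 2, where Gne was 4.77 CPM against 9.94 to 15.04 CPM in the other 5.

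The remaining lists gave 0 calls by edgeR. Fut8, which adds the core fucose of N-glycans, had a log2 fold change of 0.58 (SE 0.33), and 0.26 without WT library 2. Slc35a3, a transporter of UDP-GlcNAc into the Golgi, read 6.81 to 8.69 CPM in WT and 4.10 to 6.63 CPM in KO, and its log2 fold change was 0.55 (SE 0.31, edgeR adjusted p = 0.509). The 12 tested genes of sugar nucleotide supply had 0 at an unadjusted p under 0.05, as did the 2 tested genes of fucose and sulfate. B4galnt2, of the GalNAc and glycolipid list (3 tested, 1 higher at an unadjusted p under 0.05), had a log2 fold change of -0.32 (SE 0.40), which was -0.03 without WT library 2 and -0.66 without WT library 1. Among the 6 tested lectins, which read the finished chains, 4 were lower in WT at an unadjusted p under 0.05 (5.37% of all tested genes were) and 0 passed the adjustment. Lgals1, encoding galectin 1, had the largest difference of them, -0.54 (SE 0.26, edgeR adjusted p = 0.418), with 6.56 to 9.31 CPM in WT and 10.3 to 15.01 CPM in KO.

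**Figure D3:**
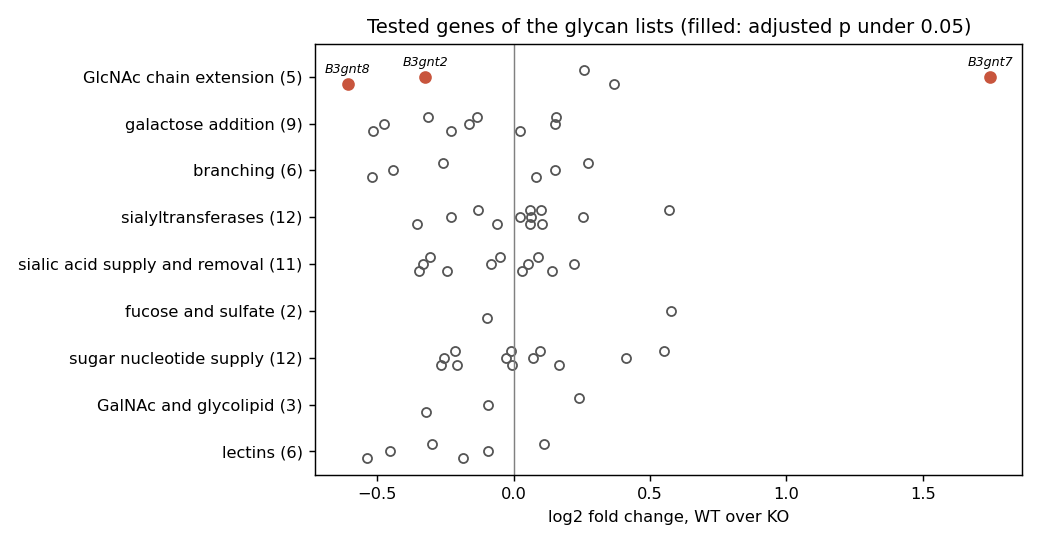
Log2 fold change (WT over KO) of the 66 tested genes in 9 glycan lists, with the number tested in brackets. Filled points mark B3gnt2, B3gnt8 and B3gnt7, which was chosen on this contrast, and open points the other 63 genes, which lie between -0.54 and 0.58.

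The genes whose pattern over the 6 libraries was most like that of B3gnt7 were no glycan enzymes. Likeness was the mean absolute difference of log2 CPM after each gene was centred on its own mean, over 9681 genes that averaged 20 counts or more, for which the median was 0.873. The 5 nearest were Fosl2 (0.226), an AP-1 factor, Nr4a2 (0.236), an orphan nuclear receptor, Crem (0.237), the cAMP response element modulator, Dmwd (0.259), and Nr4a1 (0.299), which encodes NUR77. A gene with a like WT and KO difference comes near to B3gnt7 by construction, so the order is a description. Fosl2 stood at 24.6, 36.4 and 45.8 CPM in WT and 11.8, 12.6 and 10.7 CPM in KO. As with B3gnt7, WT library 1 was the lowest and WT library 3 the highest of the WT libraries, an order that Nr4a2, Crem, Dmwd and Nr4a1 did not share. The log2 fold changes were 1.60 for Fosl2, 1.92 for Nr4a2, 1.41 for Crem, 1.56 for Dmwd and 1.69 for Nr4a1. Dmwd did not pass (edgeR adjusted p = 0.0536) and was low, at 3.57 to 8.71 CPM in WT and 1.82 to 2.73 CPM in KO. The other 6 enzymes stood at 0.742 (B3gnt5), 0.793 (B4galt1), 0.818 (St6gal1), 0.835 (St3gal1), 0.845 (Cmah) and 1.03 (B3gnt2), with B3gnt2 alone past the median.

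**Figure D4:**
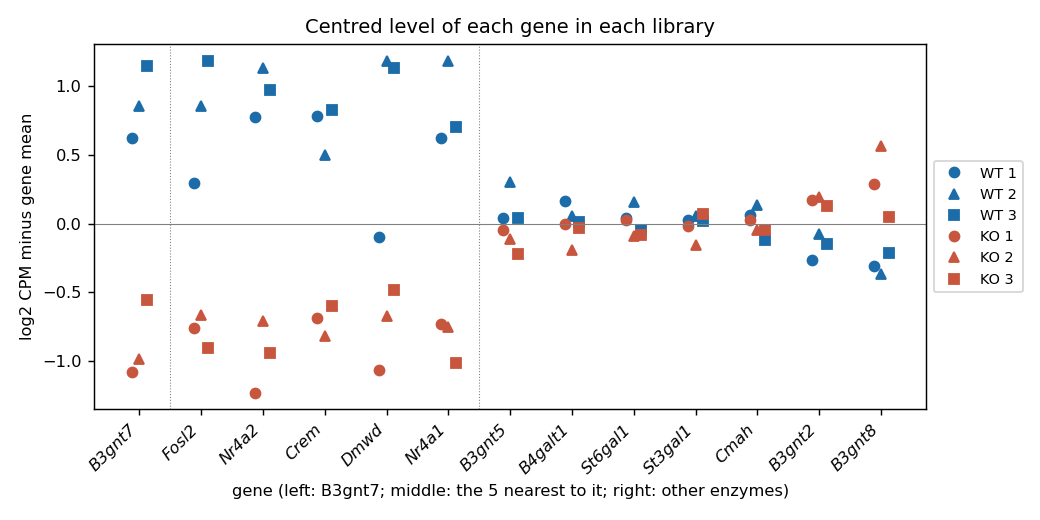
Log2 CPM minus the gene's mean over the 6 libraries, for B3gnt7, the 5 genes nearest to it, the other 6 enzymes and B3gnt8, with WT in blue, KO in red and the library number as the symbol. B3gnt7 and its 5 neighbours separate WT from KO widely, the other enzymes stay close to 0, and B3gnt2 and B3gnt8 lie lower in WT.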

How the data were processed

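Per the study's methods, the authors prepared the libraries with a QuantSeq 3′ kit, aligned single-end reads to mm10 with STAR and assigned them to genes with HTSeq. Tool versions, gene models and strand settings are not given in the sources used here. The deposited values are raw counts per gene, with no normalization and no pooling, in 12431 genes whose smallest total is 10. Sample columns left unused numbered 0. Groups came from the sample titles.

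Genes were filtered with filterByExpr, which kept 10514, and scaled by TMM. The WT against KO comparison (n = 3 each) used the quasi-likelihood test of edgeR 4.0.16 in R 4.3.3 (glmQLFit, robust, and glmQLFTest), two-sided, with Benjamini-Hochberg adjustment over all tested genes and a threshold of 0.05. Positive log2 fold changes mean higher in WT, and each SE was recovered from the F statistic, as the size of the change over the root of F. CPM were computed on TMM-scaled library sizes. Total counts were 8452460 to 10944833 per library. Reads carry no molecular identifiers, and depth limits precision for genes of a few CPM. Within groups, replicates differed by a chi-square of 6.89 to 10.9 per degree of freedom, above sampling noise. Principal components used the 500 genes with the highest variance in log2 CPM, with a prior count of 2. The scripts were tested on simulated data.

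The members and lists were chosen with earlier results of these data known. Genes named were the 7 enzymes, Gpr174, every gene of the glycan lists with an adjusted p under 0.05, the gene of each list without a call that had the largest absolute log2 fold change (mean of at least 20 counts), and the 5 genes nearest to B3gnt7. Bckdha, Gm28626, Gm12057 and Gm28048 are named for their overlap with a described gene, Cr2 for the sort gate and Cd79b for its marker list. All of these were added after the values were seen. The alternatives were DESeq2 (1.42.0), limma-voom (limma 3.58.1), RLE factors, library totals alone, no filter, a mean of at least 50 counts, ordinary dispersions, a threshold of 0.01, a replicate block and leaving out each library. Positions come from GENCODE vM21 and sequences from RefSeq. The last exon of a gene was the longest annotated exon reaching its outermost 3′ end over all transcripts. A row named B3gnt1, a symbol that has stood for different genes, was not used.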

Additional observations from a re-analysis of the deposited data

How the results depend on the processing

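B3gnt8 kept its direction and stayed under an adjusted p of 0.05 in each alternative fit. The number of genes passing, 191, became 95 at a threshold of 0.01 and ran from 91 to 183 with 1 library left out, lowest without KO library 3 (113 without KO library 2). With B3gnt7 left out because it was chosen on this contrast, B3gnt2 was the 1 enzyme of the other 6 that passed, where 1.82% of all tested genes passed. It did not pass under limma-voom, under ordinary dispersions or at the threshold of 0.01. With 1 library left out it passed only without WT library 2. The pathway genes called lower in WT were 2, and likewise 1 under those 3 settings and 1 to 2 with 1 library left out. In each case the gene that dropped out was B3gnt2, whose adjusted p was 0.0601 under ordinary dispersions. The Cmah log2 fold change of 0.05 ran from -0.0045 to 0.12 with 1 library left out and was below 0 only without WT library 2. Gpr174 (log2 fold change 0.35, adjusted p = 0.0359) stayed under the threshold in only 1 of the 6 fits with a library left out, that without WT library 2, and the adjusted p ran from 0.041 to 0.168 over the 6. With a replicate block on the shared numbers, 281 genes passed, B3gnt2 among them. The deviations of same-numbered libraries correlated at 0.05, 0.01 and 0.04, each the highest of its library but under 0.1. Those of differently numbered libraries ran from -0.040 to -0.0031. Correlations this small cannot show whether same-numbered samples were paired, so no pairing was assumed in the main fit. The causes were not tested. Genes of a few CPM, such as Mgat5 and B4galnt2, have wide intervals at this depth.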
